A study of Homo sapiens with 6 samples.

Results

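U2 small nuclear RNA (snRNA) and 8 other loci of abundant noncoding RNAs were examined in peak lists of RNA immunoprecipitated with SF3B4. SF3B4 belongs to SF3b, a protein complex of the U2 small nuclear ribonucleoprotein (U2 snRNP). The members were the deposited peaks within 1 kb of 9 loci with given hg19 bounds: the U2 snRNA array (RNU2-1), RNU2-2P, MALAT1, NEAT1, RN7SK, RMRP, RPPH1, RN7SL1 and RN7SL2. They came to 22 of the 181131 peaks in the 4 lists, of which 3 belonged to the first RIP experiment (RIP-1) and 19 to the second (RIP-2). In any list, 3 of the 9 loci held a peak, 1 of them in RIP-1 and all 3 in RIP-2. Genome windows of these lengths held a RIP-1 peak in 3.42% (shortest) to 49.4% (longest) of cases. The RIP-2 shares ran from 12.2% to 87.3%. Summed over the 9 loci, these window shares come to 1.04 loci (RIP-1) and 2.60 loci (RIP-2), near the numbers seen. The array held 20 of the 22 peaks, RMRP held 1 and RNU2-2P held 1. The array is an interval of 90.0 kb in which the U2 genes were not placed, so its peaks need not lie on U2 genes. Each of the 20 had a false discovery rate of 69.8% or more.

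RNA immunoprecipitation and sequencing (RIP-seq) had been carried out on wild-type HEK293T cells, an embryonic kidney line that carries the SV40 large T antigen, with no treatment named in the labels. Each of the 2 experiments comprised 3 libraries, one from an SF3B4 antibody, one from non-specific IgG and one from input RNA, so that every group had 2 libraries. Peaks had been called once per experiment, and each call was deposited as a list titled mRNA, of 10960 (RIP-1) and 10280 (RIP-2) peaks, and a list titled NotExon, of 25797 and 134094 peaks, which is called the non-exon list below. Scores, fold enrichments and false discovery rates (FDR) of peaks are the authors' values, and a higher score stands for a smaller p-value of the peak. The lists hold no read counts, so library depth is unknown, the label of the cell line could not be checked against marker genes, and no error between replicates can be put on a value. Signal in the IgG and input libraries can be seen only as far as one of them served as the control of a call, which the sources do not state. The RIP-2 call is longer, and its values are set beside those of RIP-1 without a test.

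U2 snRNA pairs with the branch site of an intron, and SF3b and SF3a proteins hold that duplex in the early spliceosome. Human U2 is made from a tandem array of near-identical genes on chromosome 17 and from RNU2-2 on chromosome 11, which was long taken for a pseudogene and named RNU2-2P. MALAT1 and NEAT1 are long nuclear RNAs of nuclear speckles and paraspeckles. RN7SK (7SK) holds the elongation factor P-TEFb inactive, RMRP and RPPH1 are the RNA subunits of the related enzymes RNase MRP and RNase P, and RN7SL1 and RN7SL2 encode the 7SL RNA of the signal recognition particle, which acts in the cytoplasm. MALAT1 and NEAT1 are transcribed by RNA polymerase II, as are the U2 genes, while 7SK, RMRP, RPPH1 and 7SL are made by RNA polymerase III.

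RMRP lay under a RIP-2 peak with a high score (683) but a low fold enrichment (5.10) and an FDR of 100%. RPPH1 lay under none, as did most RIP-2 windows of its length, of which 13.9% held a peak. The stretches upstream of both are shown here because the RMRP peak ran past the end of the gene. In the RefSeq table of GRCh38.p14, RMRP and RPPH1 each lie beside a protein-coding gene transcribed in the opposite direction, CCDC107 and PARP2. Each sequence is the 250 bases before the start of that gene, on its plus strand, from 5′ to 3′. Capitals mark the octamer ATGCAAAT, which is the binding site of the factor Oct-1 in promoters of small nuclear RNA genes, and the motif TATAA on either strand.

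CCDC107 side of RMRP, GRCh38.p14 chr9:35658042-35658291: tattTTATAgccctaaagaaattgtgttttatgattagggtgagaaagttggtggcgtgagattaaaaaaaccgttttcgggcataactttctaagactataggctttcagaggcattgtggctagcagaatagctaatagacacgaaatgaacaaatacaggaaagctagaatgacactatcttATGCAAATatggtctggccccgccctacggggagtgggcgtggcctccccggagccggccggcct
PARP2 side of RPPH1, GRCh38.p14 chr14:20343385-20343634: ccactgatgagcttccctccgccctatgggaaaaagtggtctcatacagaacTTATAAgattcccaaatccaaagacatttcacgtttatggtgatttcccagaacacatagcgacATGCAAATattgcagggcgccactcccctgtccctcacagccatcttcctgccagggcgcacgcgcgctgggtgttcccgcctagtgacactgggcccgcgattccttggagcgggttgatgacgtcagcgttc

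The RMRP window begins 22 bases beyond the RMRP gene, and the first 27 bases of the RPPH1 window belong to RPPH1 itself. Both windows held 1 octamer on the plus strand, at bases 186 to 193 beside RMRP and 117 to 124 beside RPPH1, and both held TATAA on the side of the noncoding RNA, beside RPPH1 as matches on both strands that overlap each other. Of 35116 such windows in the RefSeq table, 1.63% held the octamer on either strand, 18.9% held TATAA and 0.49% held both. RMRP, with a peak, and RPPH1, without one, were both beside this pair of motifs. Whether the motifs bear on the presence of a peak was not tested. A match is a run of letters, not a bound site. These windows are in another genome build than the peaks, and no position was carried from one to the other. Of the members, only MALAT1 has a promoter of its own in the table, and with no peak there it is not printed.

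The lack of peaks at most loci was read against how often any stretch of the genome of the same length held a peak. Windows were laid end to end over all chromosomes, each as long as a locus with its 1 kb flanks. For the 6 short loci (191 to 638 bp), from 3.42% to 3.90% of windows held a RIP-1 peak of either list and from 12.2% to 13.9% held a RIP-2 peak. For the 8.71 kb of MALAT1 the shares were 11.5% (RIP-1) and 36.9% (RIP-2), and for the 22.7 kb of NEAT1 they were 21.7% and 59.3%. For the array they were 49.4% and 87.3%. Summed over the 9 loci, these shares come to 1.04 loci for RIP-1, where 1 locus held a peak, and to 2.60 for RIP-2, where 3 did. The number of loci with a peak was therefore near that of all genome windows in each call. Those windows take in stretches that are not transcribed, while the loci encode abundant RNAs. The share among transcribed stretches was not computed.

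**Figure D1:**
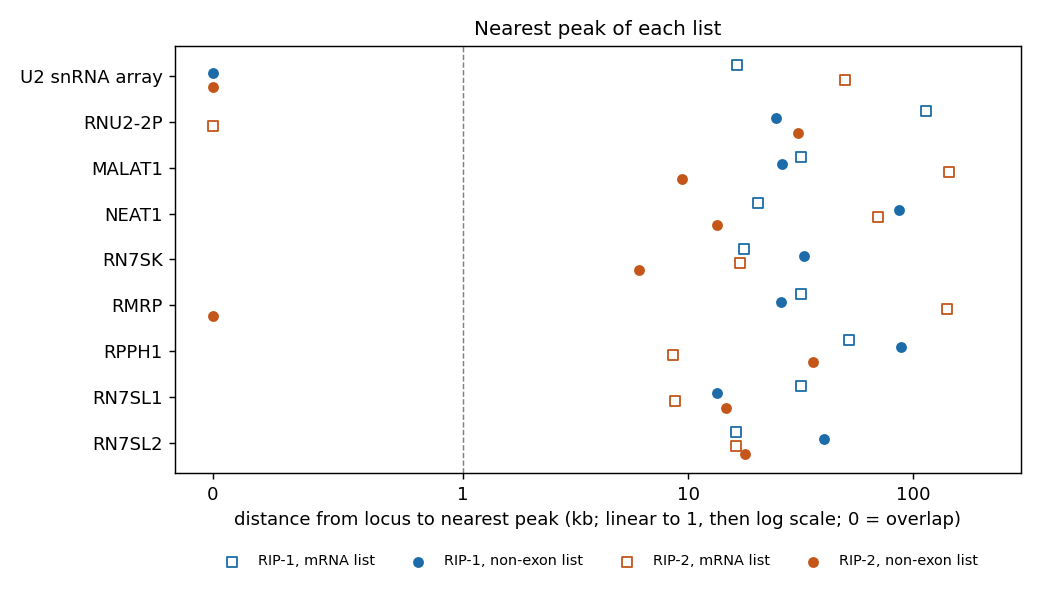
Distance in kb from each of the 9 loci (rows) to the nearest peak of each list, on an axis that is linear to 1 kb and logarithmic beyond; 0 means overlap, and the dashed line marks the 1 kb limit. Circles are non-exon lists and squares mRNA lists, blue for RIP-1 and orange for RIP-2. The array touches a peak in both experiments, RNU2-2P and RMRP in RIP-2 only, and the other 6 loci lie at least 6.06 kb from any peak.

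MALAT1 and NEAT1 had no peak in any of the 4 lists. Whether a peak on an exon of a noncoding RNA would enter an mRNA or a NotExon list was not determined, here or for the other loci. The nearest peak to MALAT1 lay 9.40 kb below it by coordinate, in the RIP-2 non-exon list, with a score of 72.6 and a fold enrichment of 8.67. In RIP-1 the nearest was 26.1 kb above it. The nearest peak to NEAT1 lay 13.5 kb below it in the RIP-2 non-exon list, with a score of 52.1 and a fold enrichment of 5.30. The nearest RIP-1 peak was 20.5 kb above NEAT1, in the mRNA list. In RefSeq, MALAT1 holds the small tRNA-like mascRNA and overlaps the antisense RNA TALAM1, and NEAT1 holds MIR612. With peaks in 36.9% and 59.3% of RIP-2 genome windows of these lengths, 2 loci without one are not unusual by this measure.

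The 7SK, RNase P and 7SL loci also lacked peaks in every list. The shares of windows as long as RN7SK, RN7SL1 and RN7SL2 with a RIP-1 peak were 3.58%, 3.55% and 3.54%. RN7SK, which lies between GSTA4 and CILK1, was nearest to a RIP-2 non-exon peak 6.06 kb below it (score 109, fold enrichment 6.06). RPPH1 was 8.56 kb from a RIP-2 mRNA-list peak (score 77.3), and its nearest RIP-1 peak was 51.8 kb away. The interval used for RPPH1 spans 638 bp, while RefSeq gives the gene 341 bp, so the search was wider than the gene. RN7SL1, which RefSeq places within the bounds of the ribosomal protein gene RPS29, was 8.73 kb from a RIP-2 mRNA-list peak of score 50.9 and 13.4 kb from a RIP-1 non-exon peak. RN7SL2 was 16.3 kb from an mRNA-list interval of chromosome 14, from 50312692 to 50312983 on the minus strand (all peak positions here are in hg19). That interval had identical edges in the lists of both experiments, and scored 92.1 (RIP-1) and 58.2 (RIP-2). How common identical edges are among mRNA-list intervals was not computed here. Over the 6 loci without a peak, the median distance to the nearest non-exon peak was 36.4 kb (RIP-1) and 14.1 kb (RIP-2). The RIP-2 non-exon list has the more peaks, and all 6 loci but RN7SL1 were nearer to one of its peaks than to a RIP-1 non-exon peak.

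RNU2-2P, the U2 gene on chromosome 11, was covered in full by 1 peak, in the mRNA list of RIP-2. The interval ran from 62609040 to 62609281 on the minus strand, 242 bp when both ends are counted, and scored 115.63. It began 51 bp below the gene and ended at the last base of the given bounds (62609281), within the 1 bp by which the counting base of the mRNA lists is unknown. In RefSeq the gene, now RNU2-2, is 191 bp long, as are the bounds used here, and lies within the protein-coding gene WDR74, whose span ends at the same base. Whether the interval's upper edge is that of a called peak or of an annotated exon was not determined. WDR74 is a nucleolar protein gene transcribed in the same direction as RNU2-2, so reads from the start of WDR74 and from the snRNA cannot be told apart in this interval. The score ranked 2431 of 10280 in its list, so 23.6% of RIP-2 mRNA-list peaks scored as high or higher, and the list's median was 79.6. The mRNA lists give no fold enrichment. RIP-1 had no partner: its nearest peaks lay 24.6 kb above (non-exon list) and 114 kb below (mRNA list).

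RMRP lay under the highest-scoring of the 22 peaks, found in the RIP-2 non-exon list only. The peak ran from 35657280 to 35658143 on chromosome 9, 864 bp, and covered the whole 268 bp locus with 468 bp below and 128 bp above. RMRP is read from high to low coordinate, so the 128 bp lie upstream of the gene, on the side of CCDC107, and the 468 bp lie beyond its 3′ end. Its score was 683.46 and its fold enrichment 5.10, with an FDR of 100%. By score it ranked 65 of 134094, in the top 0.0485%. By fold enrichment it ranked 127161, and only 5.17% of the list had a value as low or lower. Among the 65 peaks with this score or more, the median fold enrichment was 13.1 (interquartile range 8.90 to 26.9), and 2 of the 65, RMRP included, had 5.10 or less (3.08%). The width of RMRP's peak was less unusual among the 65, of which 21 were no wider (32.3%) and the median was 1175 bp. Its 864 bp exceeded the upper quartile of the whole list, 735 bp. In RIP-1, where 3.51% of windows of this length held a peak, the nearest peaks to RMRP were a non-exon peak starting at 35683979 (score 181, fold enrichment 4.84) and an mRNA-list peak 31.7 kb away.

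**Figure D2:**
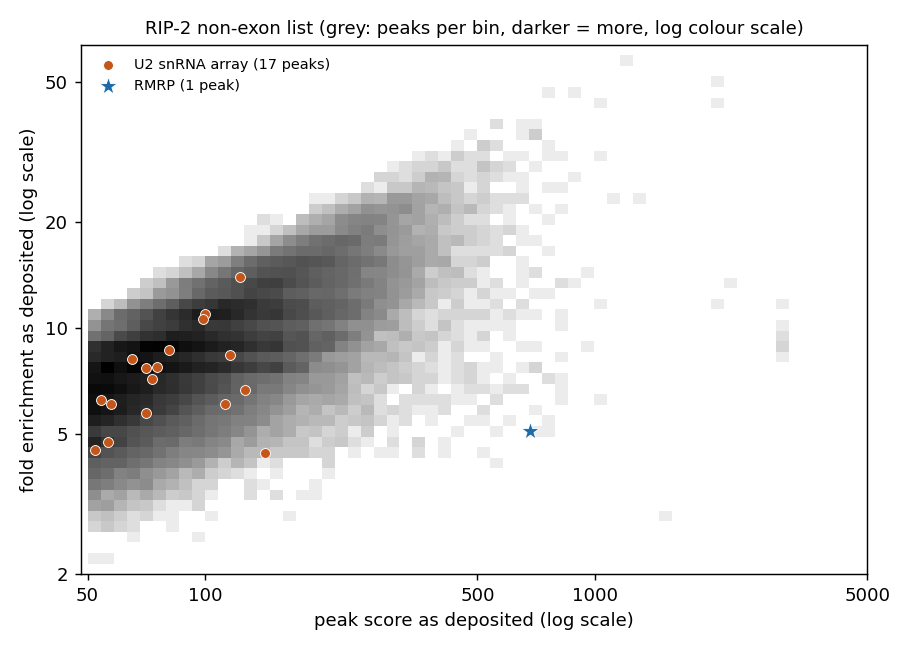
Score against fold enrichment, both as deposited and on log axes, for the 134094 peaks of the RIP-2 non-exon list (grey bins, darker for more peaks), with the 17 peaks of the U2 snRNA array as orange points and the RMRP peak as a blue star. RMRP lies at a score of 683 and a fold enrichment of 5.10, at the lower edge of the cloud, while the array peaks lie among the low and middle scores.

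The U2 snRNA array held 3 RIP-1 and 17 RIP-2 peaks, all in the non-exon lists. Its bounds, chromosome 17 from 41380000 to 41470000, span 90.0 kb, and 92.0 kb with the flanks. Which bases inside them encode U2 was not determined, since the positions of the repeated genes are given only in another build. In RefSeq (GRCh38.p14), RNU2-1 opens an unbroken run of 14 snRNA genes of 188 to 192 bp each, the other 13 without a gene symbol of their own, which follows CCDC200. Each array peak was at least 346 bp wide, and so wider than any such gene. Reads of near-identical copies can map to several of them, and the sources used here do not say how such reads were placed. The placement of every peak within the array is therefore uncertain.

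In RIP-1 the 3 peaks stood between 45.1 and 61.7 kb from the first base of the array. The first ran from 41425143 to 41426573, with a score of 92.8 and a fold enrichment of 6.06. The second ran from 41427874 to 41428661, with a score of 116 and a fold enrichment of 7.42. The third ran from 41441261 to 41441686, with a score of 53.9 and a fold enrichment of 5.40. By score the second ranked 2643 and the first 5307 of 25797, both above the list's upper quartile of 86.8, while the third lay below its median of 66.9. By fold enrichment none reached the list's upper quartile of 7.68, and 1 of the 3 exceeded its median of 6.55. All 3 had an FDR of 100%, as did 94.1% of the list.

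In RIP-2 the 17 peaks were spread from 0.992 to 77.0 kb, with 10 of the peak midpoints in the lower 45 kb of the array and 7 in the upper. Gaps between neighbours ranged from 68 bp to 11.5 kb, with a median of 3.09 kb. Scores ran from 52.3 to 142 with a median of 75.2, against a median of 80.6 for the list (interquartile range 62.2 to 115). Fold enrichment ran from 4.42 to 14.0 with a median of 7.16, against 8.19 for the list (6.75 to 9.64). The array peaks were thus many but ordinary in strength, with 8 of 17 above the list's median score and 5 of 17 above its median fold enrichment. Widths ran from 346 to 2450 bp with a median of 648 bp, against 564 bp for the list. An FDR of 100% was given for 7 of the 17 and of 69.8% to 92.0% for the other 10, while 41.6% of the list stood at 100%.

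The 3 highest-scoring RIP-2 peaks of the array were in its lower 45 kb. The highest, from 41381708 to 41382633, had a score of 142.27 but a fold enrichment of 4.42, and 98.3% of the list had a fold enrichment as high or higher. The second, from 41409262 to 41409991, had a score of 126.89 and a fold enrichment of 6.67. The third, from 41380992 to 41381639, had a score of 123.35 and the highest fold enrichment of the array, 14.01, which was reached by 4.35% of the list. The first and the third stood side by side with 68 bp between them, so neighbouring peaks of similar score had fold enrichments from the opposite ends of the list. RIP-1 had no peak in this stretch.

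**Figure D3:**
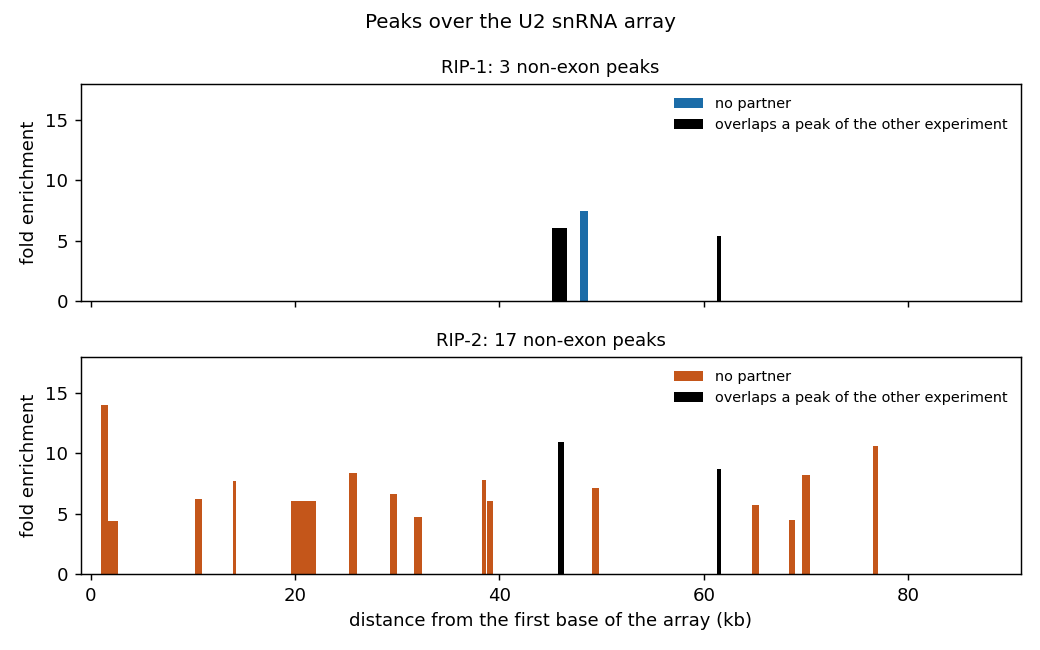
Non-exon peaks over the U2 snRNA array in RIP-1 (upper panel, 3 peaks) and RIP-2 (lower panel, 17 peaks). The horizontal axis is the distance in kb from the first base of the array, bar width is the peak's width and bar height its deposited fold enrichment. Black bars overlap a peak of the other experiment, at 45.1 and 61.3 kb in RIP-1; RIP-1 has none in the lower 45 kb.

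The number of deposited RIP-2 peaks over the array was high for its length, while the 3 RIP-1 peaks allow no such statement. Every RIP-2 array peak had an FDR of 69.8% or more, and all 3 of RIP-1 had 100%. The counts are therefore of peaks as deposited, not of peaks shown to be enriched. Over the array with its flanks, the RIP-2 non-exon list had 185 peaks per Mb (exact Poisson 95% interval 108 to 296, counting error only, with peaks treated as independent), against 43.3 over all chromosomes, 45.1 on chromosome 17, and 36 and 47 peaks in the 1 Mb on the lower and the higher side. That is 4.26 times the mean of all chromosomes. RIP-1 had 32.6 per Mb (interval 6.72 to 95.3), 3.91 times its mean of 8.34, which lies inside the interval. The 1 Mb below the array held 20 RIP-1 peaks and the 1 Mb above it 9. Of 33625 windows of the array's length, 0.717% held at least 17 RIP-2 peaks, 8.15% held at least 3 RIP-1 peaks, and 0.250% (84 windows) held both. RIP-2 peaks covered 12.4 kb, or 13.5% of the array with its flanks, against 2.81% of all chromosomes. RIP-1 peaks covered 2.87%, against 0.781%.

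**Figure D4:**
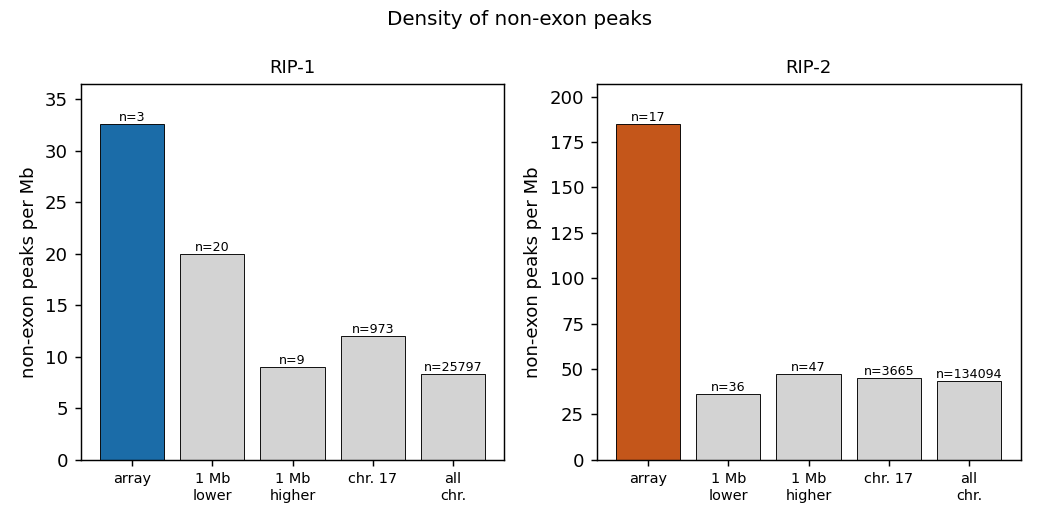
Non-exon peaks per Mb over the U2 snRNA array with its flanks (coloured bar), the 1 Mb on either side, chromosome 17 and all chromosomes (grey bars), for RIP-1 (left) and RIP-2 (right), on separate linear axes from 0; n above a bar is the number of peaks. The array is the tallest bar in both panels, at 32.6 and 185 peaks per Mb, and rests on 3 and 17 peaks.

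Per the design text of the series, RIP-1 and RIP-2 were set against each other to remove non-specific reads. Over the array 2 of 3 peaks of RIP-1 were shared, meaning that they had at least 1 bp in common with a peak of RIP-2 (66.7%, exact binomial 95% interval 9.43 to 99.2). In the whole RIP-1 non-exon list 18.1% did, which lies inside that interval. The interval treats peaks as independent, which peaks over near-identical copies may not be, so it is a rough guide only. Of the 19 RIP-2 member peaks, 18 of them non-exon, 2 overlapped a RIP-1 peak (10.5%, interval 1.30 to 33.1), against 3.63% of the RIP-2 non-exon list. The 3.63% also lies inside the interval, which has the same limit. Both overlapping peaks were non-exon. RIP-2 peaks covered 13.5% of the array with its flanks against 2.81% of all chromosomes, and RIP-1 peaks 2.87% against 0.781%. Neither percentage of shared peaks was adjusted for this. In the first pair, the RIP-2 peak from 41425741 to 41426323 lay wholly inside the RIP-1 peak and made up 40.7% of it. Its fold enrichment was 10.97 in RIP-2 and 6.06 in RIP-1. In the second pair the edges nearly coincided: the RIP-2 peak ran from 41441266 to 41441685, 5 bp and 1 bp inside the RIP-1 peak, with fold enrichments of 8.67 and 5.40. Of the 4679 shared RIP-1 non-exon peaks, 6 (0.128%) had both edges within 5 bp of the RIP-2 peak, and this one was among them; the 5 bp limit was set after this pair had been seen. The RIP-1 peak without a partner, the highest-scoring of the 3, lay 392 bp from the nearest RIP-2 peak. RMRP and RNU2-2P had no partner in RIP-1, so the array held all the shared member peaks.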

How the data were processed

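The authors called peaks once per RIP experiment, and peak names start with MACS, a peak caller made for chromatin; its version, settings and control library are not stated. Per the submitters' processing notes, cutadapt 1.9.3, HISAT2 2.0.4 and hg19 were used. The deposited score was taken, from its values, as −log10 of the peak's p-value times 10. The non-exon lists also hold, by column order since there is no header, the fold enrichment (a ratio) and the FDR in percent, as deposited by the authors. Peak length in bp matched positions counted from 1 with both ends included.

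Python 3.11.15 with pandas 2.3.3 was used. A peak was a member when it overlapped a locus with 1 kb flanks, and shared when it had at least 1 bp in common with a peak of the other experiment in the list of the same title, on 1 strand where strands are given. Functions were tested on simulated intervals. Windows were tiled from base 1 to the last peak of each chromosome, assembly gaps included. All loci are named; of more than 10 peaks, the 3 with the highest score. No test across libraries was possible. Members and lists were chosen with earlier results of these data known. The locus bounds were not checked against an hg19 annotation, and other small RNA genes were not analysed here for lack of one. The sequences of U2 and of the other members were not used here.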

Additional observations from a re-analysis of the deposited data

How the results depend on the processing

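Most counts rest on the array and on RIP-2. Without the array, 0 RIP-1 and 2 RIP-2 peaks remained, at 0 and 2 loci. Without replicate 1 or without replicate 2, there were 19 or 3 peaks, at 3 or 1 loci. The upper 50% of each list by score held 10 RIP-2 peaks and 12 in all, fewer by construction. Flanks of 10 kb gave 7 loci with a peak. Where the overlap had to reach 50% of the RIP-1 and also of the RIP-2 peak, 1 peak of each experiment was shared. Against the 1 Mb on both sides of the array, its RIP-1 density was 2.25 times as high. The other 47 alternative values, with flanks of 0 or 5 kb among them, stayed within 1.5 times. The use of windows holding any peak was added after the data were seen. No paired analysis was possible because the lists hold no values per library. Unknown depth limits every comparison of RIP-1 with RIP-2.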
